A study of Mus musculus with 88 samples.

Results

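The genes of maternal mRNA storage and translational repression followed here in single fully grown mouse oocytes were Ybx2, Zar1, Zar1l, Lsm14b, Ddx6, Cpeb1, Patl2, Eif4enif1, Eif4e1b and Dazl. They were listed by name, and all 10 of 10 were found among the 38540 features of the deposited count table. The feature of a gene was the one to which the study's supplementary table gives that name, which served Lsm14b, Ddx6, Cpeb1, Patl2 and Dazl. For the other 5 it was the same-strand feature that overlapped the span of the GENCODE M21 gene best. As a share of the union of the spans, that overlap was 45.5% for Zar1l, 67.6% for Zar1, 84.3% for Eif4e1b and 96.9% for Ybx2. The supplementary table gives the feature of Eif4enif1 another name, Drg1, although its span matched the Eif4enif1 gene with an overlap of 99.6%.

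The oocytes were germinal vesicle (GV) oocytes of virgin, spontaneously ovulating C57BL/6Babr females, with no allele or agent in either group. Young oocytes came from mice of 12 weeks and old oocytes from mice of 44 to 54 weeks. By the paper's account more old mice than young mice were used. RNA was measured as the polyadenylated RNA part of scM&T-seq, which takes RNA and DNA methylation from the same cell, in 42 young and 45 old oocytes. A further old oocyte, 48A, has no chromatin configuration and entered only an alternative with all 88 oocytes. The study left an oocyte out as an outlier of its expression distances, and 48A was taken to be that one because it alone lacks a configuration. Which mouse gave which oocyte is not in the labels, so each age is 1 sample, no test between groups was made, and every interval given covers counting error only.

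Chromatin configuration was the study's own prediction for each oocyte from its transcripts. An oocyte with a non-surrounded nucleolus (NSN) is the less mature kind, and one with a surrounded nucleolus (SN) has chromatin condensed around the nucleolus and is the more mature kind. The young set held 30 NSN and 12 SN oocytes and the old set 37 NSN and 8 SN oocytes. The prediction used the levels of genes that earlier data had shown to be higher in SN than in NSN oocytes, and whether any of the 10 is among them was not checked here. Differences between SN and NSN are therefore a description and not independent of that choice.

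A growing oocyte makes far more mRNA than it translates and keeps the surplus in ribonucleoprotein particles, masked by RNA binding proteins and with short poly(A) tails. Transcription stops as the oocyte reaches full size and its chromatin turns to the SN form, so maturation and the first cell cycles run on this store. When maturation begins, proteins bound to the 3′ ends of chosen mRNAs, among them CPEB1 and DAZL, let the tails be lengthened and translation start.

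RNA was captured through the poly(A) tail, so the 3′ ends of the genes past the 1.2-fold threshold used below in any comparison (Dazl, Ddx6, Patl2, Eif4enif1 and Lsm14b), and of Ybx2 as a contrast, are shown here from GENCODE M21 transcripts on GRCm38. Each line is the last 30 bases of the longest protein-coding transcript, 5′ to 3′, and capitals mark the polyadenylation hexamer AATAAA.
Dazl, chr17:50279397-50279426, minus strand: gtatacacgAATAAAacctttttttcaaaa
Ddx6, chr9:44640702-44640731, plus strand: ttatctcAATAAAagcccactggaacttca
Patl2, chr2:122120108-122120137, minus strand: tatttAATAAAagtctaatctgggatgttg
Eif4enif1, chr11:3244558-3244587, plus strand: aaagttacatatgccacgtgtgtgaacgat
Lsm14b, chr2:180035436-180035465, plus strand: aactaAATAAAcattggactcttcaagtgc
Ybx2, chr11:69941576-69941605, plus strand: cagtaaaaacaaaagcaggctttcttgttg
AATAAA stood in the last 30 bases of 8 of the 10 genes and in 51.5% of 21813 protein-coding genes. Ybx2 had neither AATAAA nor ATTAAA there, and Eif4enif1 had ATTAAA 34 bases before its end. The cytoplasmic polyadenylation element that CPEB1 binds, searched on the RNA strand as TTTTAT or TTTTAAT in the last 150 bases, was found in 1 of the 10, Ybx2, and in 21.5% of all protein-coding genes. These are annotated ends, and the oocyte features of Zar1 and Zar1l reach 1876 and 8318 bases past the ends of their genes. Whether the motifs stand at the ends used in oocytes was not tested. Tail lengths were not measured.

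Oocyte markers were present in every group. The 8 oocyte markers that were found (zona pellucida genes Zp1 to Zp3, Gdf9, Bmp15, Nlrp5, Padi6 and Kit) were each above 10 counts per 1000000 total counts (CPM) in every group. Of 10 granulosa and cumulus markers, 2 reached 10 CPM, Nr5a2 and Kitl, and the summed level of the list was 32.7 to 95.3 CPM in young and 27.3 to 134 CPM in old oocytes. The stromal list did not pass 8.23 CPM in any oocyte, and the blood list reached 48.6 CPM in 1 old NSN oocyte and stayed at or below 2.47 CPM in every young one. Their part in the results was not tested. Total counts ran from 1579196 to 8231046 in young and from 976456 to 5448310 in old oocytes.

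Together the 10 genes took 0.565% ± 0.025 (SD over 42 oocytes) of all counts in young and 0.584% ± 0.029 (SD over 45 oocytes) in old oocytes, and no oocyte of the 87 was below 0.516% or above 0.645%. Per kilobase of merged exons, Cpeb1 stood first at 352 CPM per kb, followed by Zar1 (323), Dazl (269), Zar1l (267), Eif4e1b (257), Lsm14b (164) and Eif4enif1 (112). Patl2 (21.2), Ybx2 (8.17) and Ddx6 (3.80) stood far below. Several neighbours in this order did not differ beyond the spread of the oocytes, with Dazl above Zar1l in 45 of 87 oocytes, Zar1l above Eif4e1b in 48 and Cpeb1 above Zar1 in 60. Eif4enif1 was above Patl2 in 87 of 87. Taking the length of the longest transcript instead exchanged Eif4e1b with Zar1l and Eif4enif1 with Lsm14b. The feature of Zar1l reaches 8318 bases past the annotated 3′ end of its gene, and that of Zar1 1876 bases, so their levels per kilobase may be set too high.

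**Figure D1:**
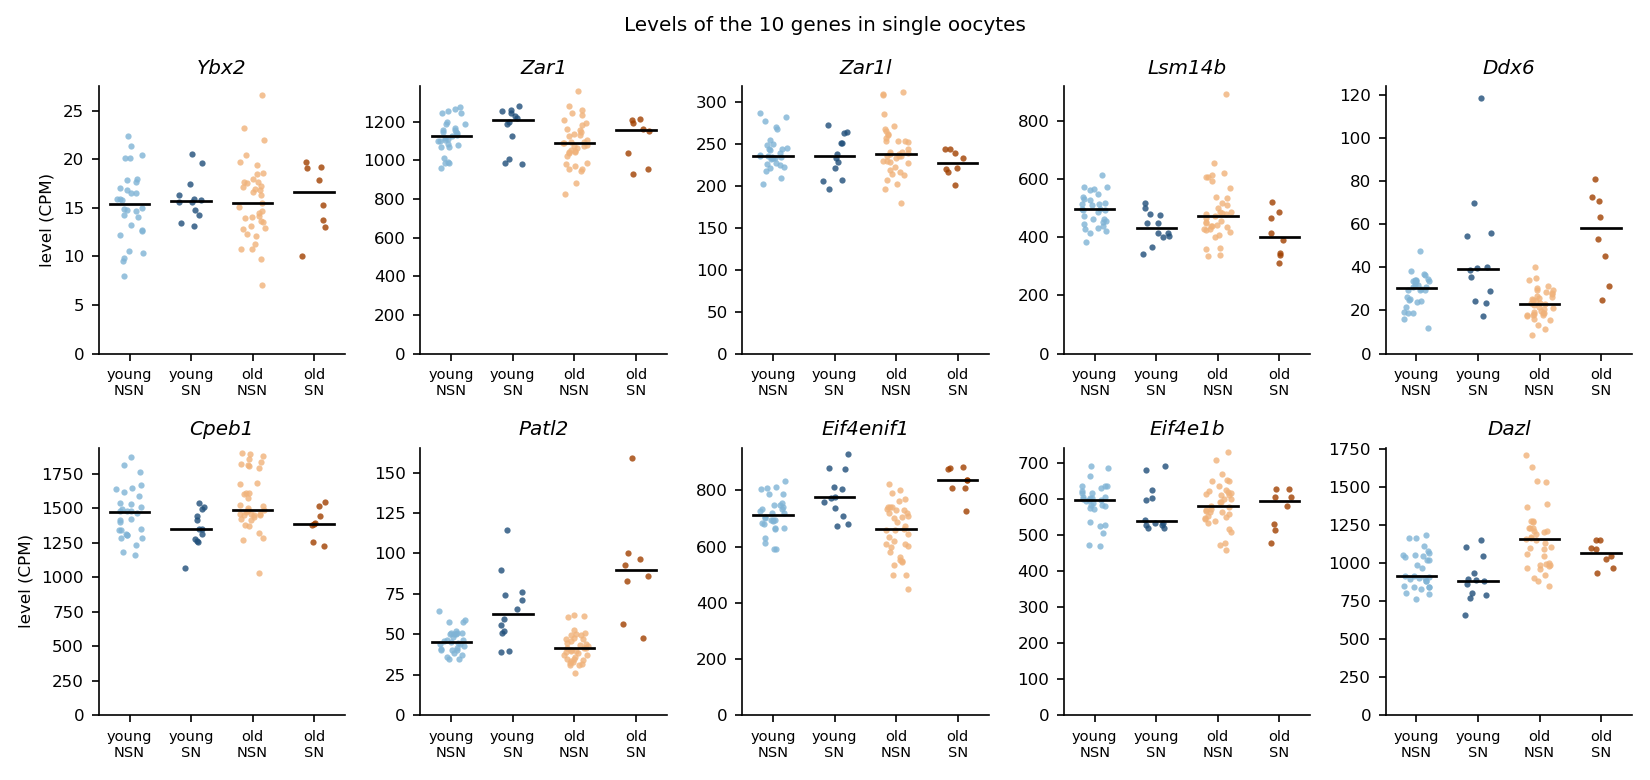
Level of each of the 10 genes (CPM, linear axis from 0) in 30 young NSN, 12 young SN, 37 old NSN and 8 old SN oocytes, 1 point an oocyte, with black bars at the group medians. Dazl sits higher in old oocytes of both configurations, Ddx6 and Patl2 sit highest in old SN oocytes, and the groups overlap for every gene.

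Old and young oocytes were compared to ask whether the storage machinery differs with maternal age. A ratio was counted when it was 1.2-fold or more in either direction and the median oocyte moved the same way, among features that reached 10 CPM on one side of the comparison. By that rule 1 of the 10 genes was higher in old oocytes, Dazl, against 1.39% of 9397 features, and 0 of the 10 were lower, against 3.86%. The median log2 ratio of the 10 genes, old over young, was -0.01, and that of all features was -0.00442.

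Dazl (feature chr17:50279391-50294438, minus strand) encodes an RNA binding protein of germ cells that promotes translation of maternal mRNAs during maturation. Its level ran from 659 through a median of 906 to 1182 CPM in young and from 845 through 1131 to 1707 CPM in old oocytes. The ranges overlap, but 16 of 45 old oocytes were above the highest young one and 42 of 45 were above the young median. Summed over oocytes the levels were 929 and 1144 CPM, with a log2 ratio of 0.30 (95% interval from counting error 0.29 to 0.31), and 99.3% of features had a lower ratio. The difference was present in both configurations. In NSN oocytes the level was 963 CPM young and 1161 CPM old, a log2 ratio of 0.27, and in SN oocytes 846 and 1062 CPM, a log2 ratio of 0.33. All 8 old SN oocytes were above the young SN median. The value in NSN oocytes is near the threshold, and it was 0.23 without old oocytes 25 to 31. In SN oocytes it was 0.20 without young oocytes 17 to 24, and 0.24 without young oocyte 24A, which alone holds 21.5% of the counts of the young SN oocytes.

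Oocytes are numbered in 6 unbroken runs, 3 for young and 3 for old, and the labels do not say what a run stands for. Dazl stood between 898 and 960 CPM in the 3 young runs and between 1100 and 1194 CPM in the 3 old runs, with no overlap, and the same held in NSN oocytes alone (946 to 977 and 1107 to 1230 CPM). Cpeb1 also had old runs above the young ones, 1489 to 1565 against 1415 to 1468 CPM, though not in NSN oocytes alone. These were 2 of the 10 genes, against 6.54% of features, and 0 of the 10 had old runs below the young ones, against 6.6%. In NSN oocytes alone 1 of the 10 genes, Dazl, had old runs above the young ones, against 5.58% of features, and 3 had old runs below, against 7.18%. These were Ddx6 (28.3 to 29.9 CPM young and 21.1 to 24.4 CPM old), Zar1 (1106 to 1160 and 1073 to 1099 CPM) and Eif4enif1 (695 to 737 and 635 to 673 CPM). Each run holds oocytes of 1 age, so run and age cannot be told apart.

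**Figure D2:**
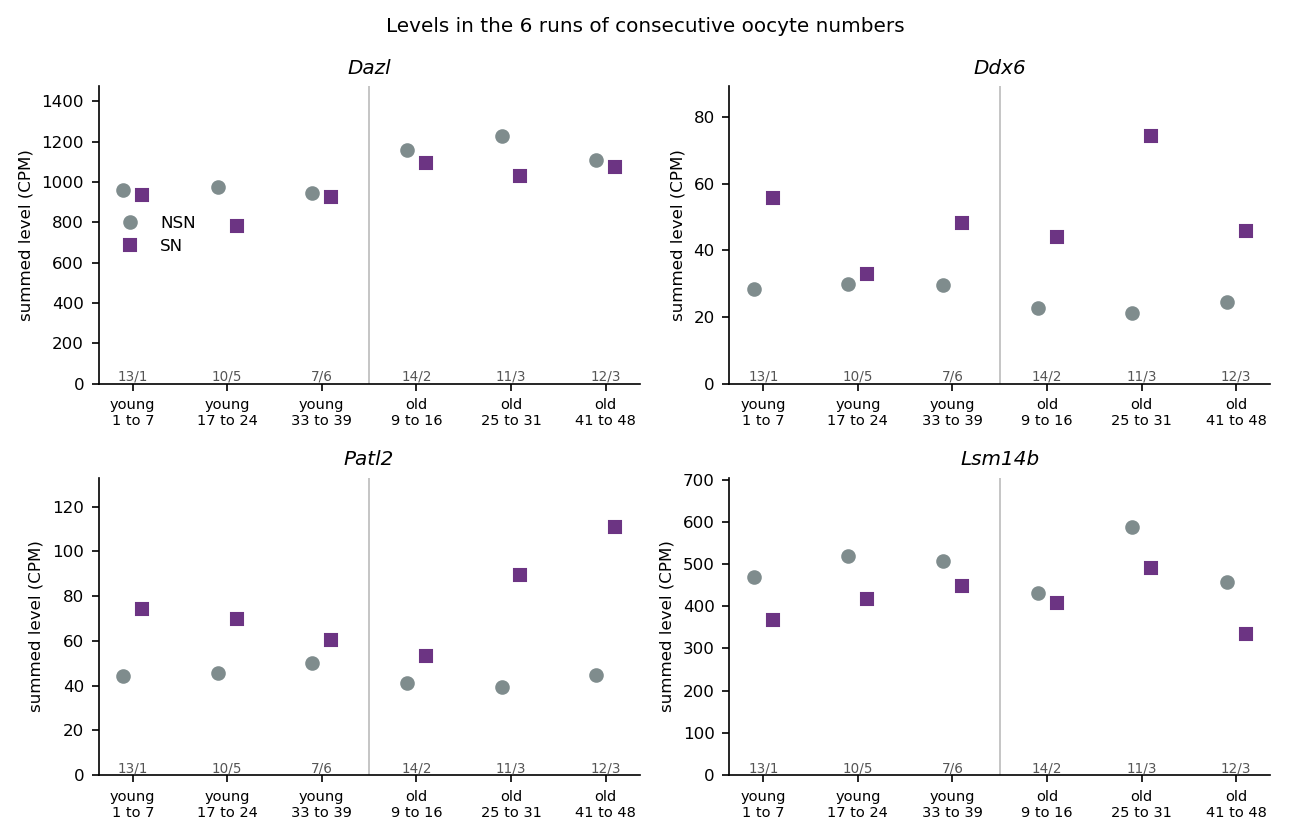
Summed level (CPM, linear axis from 0) of Dazl, Ddx6, Patl2 and Lsm14b in the NSN (circles) and SN oocytes (squares) of each run of oocyte numbers, with the numbers of NSN and SN oocytes printed above the axis. Old runs lie above young runs for Dazl, SN lies above NSN for Ddx6 and Patl2 and below NSN for Lsm14b in each of the 6 runs, and 1 run holds a single SN oocyte.

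Cpeb1 (chr7:81346966-81455080, minus strand), the protein that reads the cytoplasmic polyadenylation element and both represses and later activates the mRNAs that carry it, was the most abundant of the set. It ran from 1065 through 1418 to 1872 CPM in young and from 1026 through 1480 to 1895 CPM in old oocytes. Both ranges are nearly the same, while 33 of 45 old oocytes were above the young median. The log2 ratio of the summed levels was 0.09 (0.08 to 0.10), under the threshold.

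The coat and masking genes showed little difference with age. Ybx2 (chr11:69935613-69941606, plus strand), the germ cell Y-box protein MSY2 that binds much of the maternal mRNA, ran from 7.98 through 15.7 to 22.4 CPM in young and from 7.03 through 15.5 to 26.5 CPM in old oocytes. The groups overlap throughout, with a log2 ratio of -0.00390 (-0.10 to 0.09). At 12 to 128 counts an oocyte it is the gene with the fewest counts of the set. Zar1 (chr5:72574930-72581512, minus strand), a zygotic arrest protein that binds the 3′ untranslated regions of maternal mRNAs, ran from 960 through 1144 to 1282 CPM in young and from 826 through 1091 to 1357 CPM in old oocytes, and 30 of 45 old oocytes were below the young median. Its log2 ratio was -0.05 (-0.06 to -0.04). Zar1l (chr5:150498737-150523178, minus strand), its paralog, ran from 197 through 236 to 287 CPM in young and from 180 through 237 to 312 CPM in old oocytes, a log2 ratio of -0.01 (-0.04 to 0.01). The feature of Zar1l shares 860 bases with the feature of Brca2 on the other strand, outside the span of the Zar1l gene, and reads there cannot be assigned without a stated strand setting.

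The cap-binding members were also close. Eif4e1b (chr13:54783169-54788459, plus strand), the oocyte relative of the cap-binding protein eIF4E, ran from 468 through 596 to 691 CPM in young and from 458 through 581 to 728 CPM in old oocytes, a log2 ratio of -0.03 (-0.04 to -0.01). Eif4enif1 (chr11:3202211-3244588, plus strand) encodes 4E-T, which binds eIF4E proteins and holds them away from translation initiation. It ran from 590 through 729 to 929 CPM in young and from 449 through 705 to 883 CPM in old oocytes, and 9 of 45 old oocytes were below the lowest young one. Its log2 ratio was -0.10 (-0.11 to -0.08).

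Ddx6 and Patl2 separated most by configuration in old oocytes, with SN over NSN log2 ratios of 1.26 and 1.18. In young oocytes these ratios, 0.47 and 0.52, were close to the age ratios in SN oocytes, 0.45 and 0.52. Ddx6 (chr9:44604862-44640900, plus strand) encodes the DEAD-box RNA helicase that represses translation in storage particles and P bodies. Over all oocytes it stood at 32.3 CPM young and 28.5 CPM old, a log2 ratio of -0.18 (-0.25 to -0.11), under the threshold. The ratio of medians, 31.5 and 24.8 CPM, was larger, at -0.34 on the log2 scale. Both ratios mix the configurations, with 12 of 42 young and 8 of 45 old oocytes SN, and the part of that share was not tested. Within NSN oocytes Ddx6 ran from 11.8 through 30.3 to 47.3 CPM in young and from 8.77 through 23.1 to 40.1 CPM in old ones, and 33 of 37 old oocytes were below the young median. That log2 ratio, -0.34 (-0.43 to -0.26), passed the threshold, and 2.08% of features had a lower one. It was under the threshold at -0.24 with every oocyte thinned to 900000 counts and at -0.22 among oocytes with the suffix A, a mark the labels do not explain.

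In NSN oocytes 1 of the 10 genes was higher in old, Dazl, against 1.67% of 9324 features, and 1 was lower, Ddx6, against 4.62%. In SN oocytes 3 of the 10 were higher in old, Ddx6, Patl2 and Dazl, against 10.1% of 9703 features, and 0 were lower, against 8.16%. Thus Ddx6 was on opposite sides in the 2 configurations. The levels in SN oocytes ran from 17.5 through 39.2 to 119 CPM in young and from 24.8 through 58.1 to 80.8 CPM in old oocytes, with 6 of 8 old ones above the young median, and the log2 ratio of the sums was 0.45 (0.33 to 0.56). It was 0.24 without young oocyte 24A, 0.03 among oocytes whose names carry no suffix and 0.98 among those with the suffix A.

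Patl2 (chr2:122120108-122186189, minus strand), the oocyte form of the PAT1 family of repressors that work with DDX6 and LSM14 proteins, had the same order. In NSN oocytes it ran from 34.5 through 45.3 to 64.1 CPM in young and from 26 through 41.4 to 62.0 CPM in old ones, a log2 ratio of -0.13 (-0.20 to -0.07). SN oocytes ran from 39.1 through 62.4 to 114 CPM in young and from 47.6 through 89.4 to 159 CPM in old ones, a log2 ratio of 0.52 (0.44 to 0.61), which was 0.24 without old oocytes 41 to 48. Over all oocytes the summed levels were close, at 51.8 CPM young and 51.3 CPM old. The ratio of medians, 49.2 and 43.6 CPM, was -0.17 on the log2 scale. Both mix the configurations, with 12 of 42 young and 8 of 45 old oocytes SN, and the part of that share was not tested. The age ratio in SN less that in NSN oocytes was 0.79 for Ddx6 (0.65 to 0.93) and 0.66 for Patl2 (0.55 to 0.76) on the log2 scale, and 1.26% and 2.06% of 9864 features had a larger difference. For the other 8 genes the difference lay between -0.11 and 0.21.

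**Figure D3:**
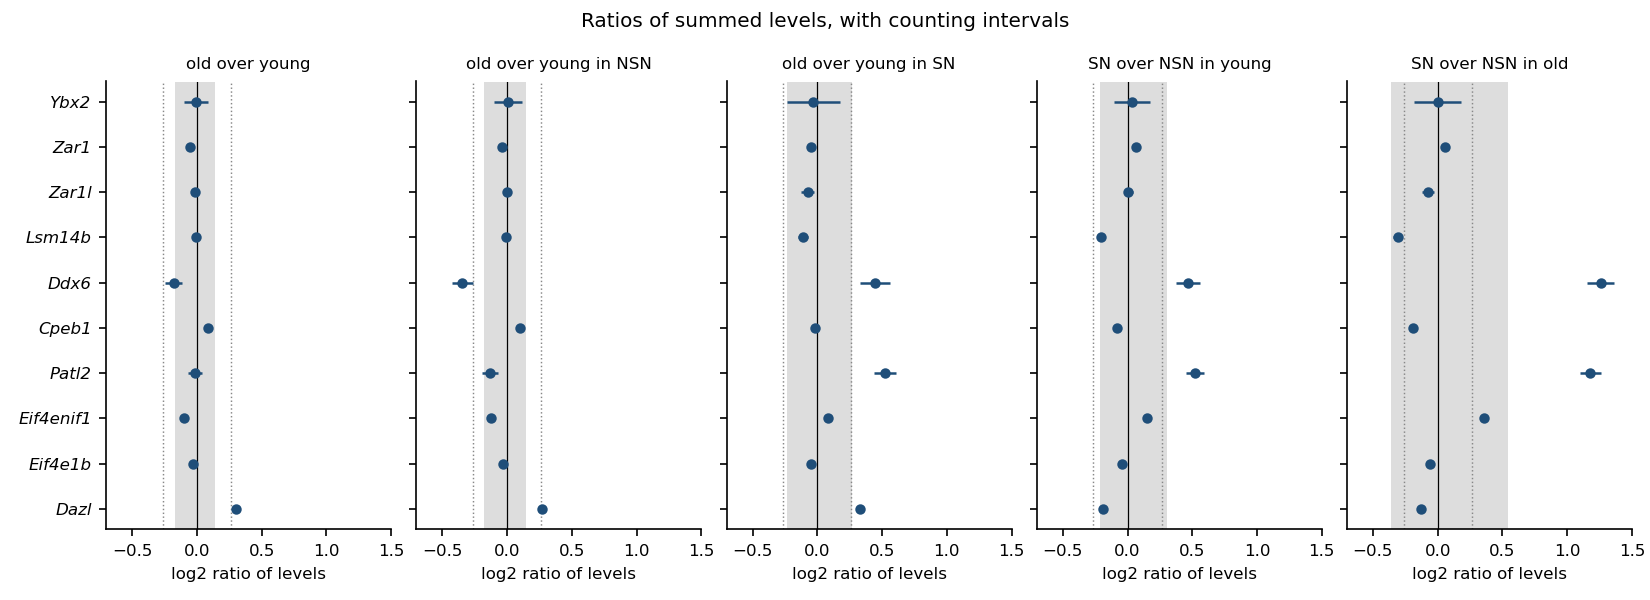
Log2 ratio of summed levels for the 10 genes in each of 5 comparisons, with 95% counting intervals as bars, the middle 80% of features tested as a grey band and dotted lines at 1.2-fold. Dazl lies outside the band in all 3 age comparisons. Ddx6 lies to the left of the band in the age comparisons over all oocytes and in NSN oocytes. Ddx6 and Patl2 lie to the right of the band in the SN age comparison and in both SN over NSN comparisons.

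SN and NSN oocytes were compared within each age. In young oocytes 2 of the 10 genes were higher in SN, Ddx6 and Patl2, against 12.5% of 9586 features, and 0 were lower, against 5.82%. In old oocytes 3 were higher, Ddx6, Patl2 and Eif4enif1, against 22.9% of 9747 features, and 1 was lower, Lsm14b, against 18%. Counted differences were common among all features here, and more so in old oocytes.

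Ddx6 was 29.1 CPM in NSN and 40.2 CPM in SN oocytes of young mice, a log2 ratio of 0.47 (0.38 to 0.56), and 22.9 and 54.8 CPM in those of old mice, a log2 ratio of 1.26 (1.15 to 1.36). The highest NSN oocyte of the same age was exceeded by 4 of 12 young SN oocytes and 6 of 8 old SN oocytes. In the 8 old SN oocytes Ddx6 stood at 24.8, 31.5, 45.4, 53.1, 63.1, 70.6, 72.7 and 80.8 CPM. The lowest of these, oocyte 15, lies among the NSN oocytes and is also the 1 oocyte whose total count, 1007492, differs from the total the study lists for it. The young ratio was under the threshold, at 0.25, without young oocytes 33 to 39. Within the runs the SN over NSN log2 ratio of Ddx6 was positive in 6 of 6, from 0.14 in young oocytes 17 to 24 to 1.82 in old oocytes 25 to 31.

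Patl2 was 46.1 CPM in NSN and 66.1 CPM in SN oocytes of young mice, a log2 ratio of 0.52 (0.45 to 0.59), and 42.0 and 95 CPM in those of old mice, a log2 ratio of 1.18 (1.10 to 1.26). Again 6 of 8 old SN oocytes were above the highest NSN oocyte of their age, and so were 6 of 12 young ones. The 8 old SN values were 47.6, 56.0, 83.2, 86.1, 92.8, 96.7, 100.1 and 159 CPM, and oocyte 15 was again the lowest. Its ratio was positive in 6 of 6 runs, from 0.27 to 1.31.

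Eif4enif1 followed with a smaller step. It ran from 590 through 711 to 835 CPM in young NSN and from 674 through 776 to 929 CPM in young SN oocytes, a log2 ratio of 0.15 (0.13 to 0.17), and from 449 through 664 to 821 CPM in old NSN and 726 through 838 to 883 CPM in old SN oocytes, a log2 ratio of 0.36 (0.33 to 0.38). All 8 old SN oocytes were above the old NSN median, and 5 of them were above every old NSN oocyte. The single SN oocyte of young oocytes 1 to 7 was slightly below the NSN oocytes of its run, with a log2 ratio of -0.05.

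Lsm14b (chr2:180019640-180035465, plus strand), which encodes the LSM14 protein of oocyte storage particles and a partner of DDX6, went the other way. It ran from 382 through 496 to 614 CPM in young NSN and from 343 through 432 to 518 CPM in young SN oocytes, a log2 ratio of -0.21 (-0.23 to -0.18), and from 334 through 474 to 891 CPM in old NSN and from 310 through 402 to 523 CPM in old SN oocytes, a log2 ratio of -0.31 (-0.34 to -0.27). The old value stayed past the threshold in 6 of 11 alternatives. It was -0.25 after thinning, -0.24 with medians, -0.26 with means over oocytes, -0.14 without old oocytes 41 to 48 and 0.06 among oocytes with the suffix A, where only 3 SN oocytes remain, and it was also under the threshold without old oocyte 41 or without old oocyte 47. Within runs the ratio was negative in 6 of 6, from -0.46 to -0.09. Across ages Lsm14b did not stand apart, at 475 CPM young and 474 CPM old.

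The remaining members were under the threshold with configuration at both ages. Dazl had an SN over NSN log2 ratio of -0.19 (-0.20 to -0.17) in young and -0.13 (-0.15 to -0.11) in old oocytes, and Cpeb1 one of -0.08 (-0.09 to -0.07) and -0.19 (-0.21 to -0.17). Dazl was lower in SN in every run, from -0.33 in young oocytes 17 to 24 to -0.03 in young oocytes 33 to 39. All 8 old SN oocytes were below the old NSN median for Dazl, and 8 of 12 young ones below the young. The young ratio of Dazl was -0.29, past the threshold, without young oocytes 33 to 39 and -0.05 without 17 to 24. Zar1 was at 0.07 and 0.06, Zar1l at 0.00434 and -0.07, Eif4e1b at -0.04 and -0.06 and Ybx2 at 0.04 and -0.000138. The old ratio of Ybx2 was -0.21 among oocytes with no suffix and 0.34 with the suffix A. Summed oocyte markers also differed by configuration, with medians of 22549 CPM in young NSN, 26580 in young SN, 21719 in old NSN and 29426 in old SN oocytes, and their part in these ratios was not tested.

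**Figure D4:**
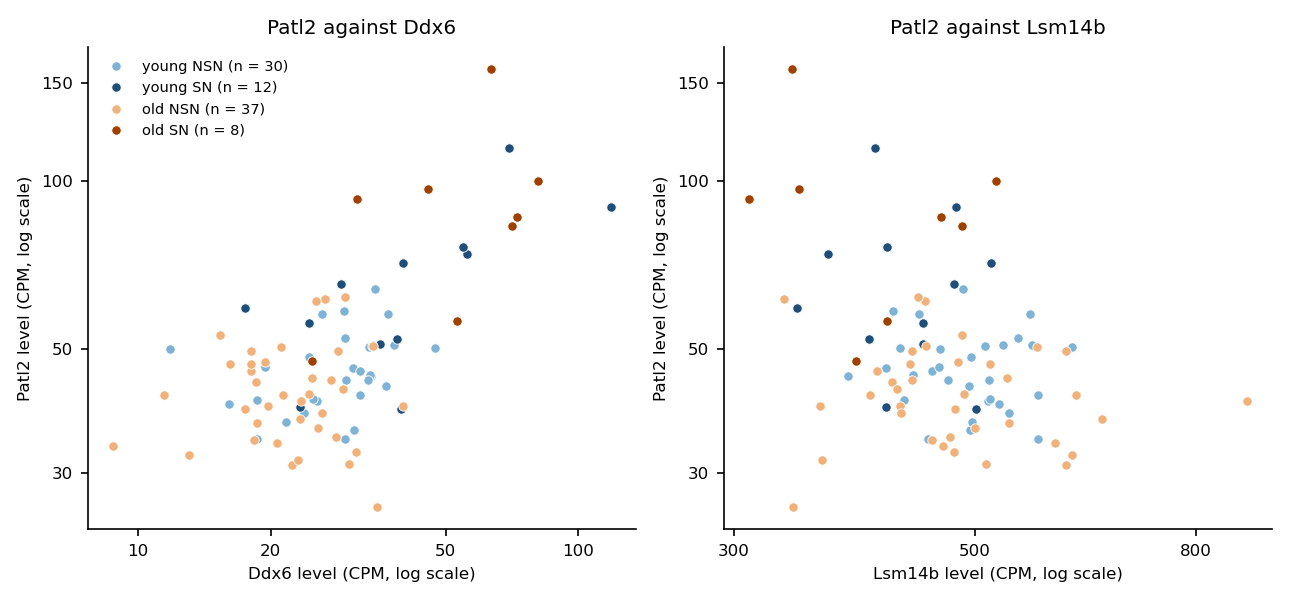
Level of Patl2 against that of Ddx6 and against that of Lsm14b (CPM, log axes) in 87 oocytes coloured by age and configuration, 1 point an oocyte. SN oocytes spread to high Ddx6 and Patl2 together, while NSN oocytes of both ages form a cloud at 26 to 64.1 CPM of Patl2.

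Over the 87 oocytes the levels of Ddx6 and Patl2 had a Pearson correlation of 0.63 (Spearman 0.49) on the log2(CPM + 1) scale. Within configurations it was 0.34 in young NSN and 0.03 in old NSN oocytes, and 0.67 in young SN and 0.50 in old SN oocytes. Patl2 and Eif4enif1 had 0.49 over all oocytes, 0.02 and 0.31 in young and old NSN oocytes, and -0.09 and 0.47 in young and old SN oocytes. The strongest negative pair was Eif4enif1 and Dazl, at -0.56 over 87 oocytes, -0.45 in young NSN, -0.54 in old NSN, -0.48 in young SN and -0.22 in old SN oocytes. Zar1 and Dazl had -0.43 over all oocytes, -0.44 in young NSN, -0.46 in old NSN, -0.00495 in young SN and -0.46 in old SN oocytes. Zar1 and Eif4e1b had 0.35 over all oocytes, 0.32 in young NSN and 0.51 in old NSN oocytes, but 0.63 in young SN and -0.53 in old SN oocytes. Cpeb1 and Eif4e1b had 0.39 over all oocytes, 0.17 in young NSN, 0.50 in old NSN, 0.46 in young SN and 0.75 in old SN oocytes. The SN values rest on 12 young and 8 old oocytes. The points of each pair share a library and a total to which both genes were scaled, and these values describe the oocytes only.

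Among 5087 named features that averaged 100 counts or more, the one whose level followed a gene best over the 87 oocytes was Ncstn for Eif4enif1 (Pearson 0.83), Scamp5 for Patl2 (0.81), 9030624J02Rik for Cpeb1 (0.71), Ppfia1 for Lsm14b (0.70), Cct4 for Ddx6 (0.69), Mbd3l2 for Dazl (0.67), Ldhb for Zar1 (0.65), Dand5 for Zar1l (0.65), Slc25a48 for Eif4e1b (0.60) and Kmt2d for Ybx2 (0.53). Scamp5 had the order of Patl2, with 66.6 CPM in young NSN, 103 in young SN, 63.3 in old NSN and 138 in old SN oocytes. Mbd3l2 had 142 CPM in young NSN and 174 in old NSN oocytes, and 126 and 129 CPM in SN oocytes.

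Oocytes differed more among themselves in the old group over all oocytes and in NSN oocytes, but not in SN oocytes. The old group also came from more mice and a wider range of ages, and their part in the spread was not tested. The spread was taken as the squared coefficient of variation (CV) of scaled counts less counting noise, and it was larger in old oocytes for 10 of the 10 genes, against 73.8% of 12151 features. In NSN oocytes alone it was larger for 9 of 10, with Ybx2 the exception, against 73.7%. In SN oocytes it was larger in old for 4 of the 9 genes with a value, against 41.8% of 10957 features, and the median log2 ratio was -0.02. There Dazl had -2.30, Zar1l -1.91, Eif4enif1 -1.81 and Ddx6 -1.50, and Ybx2 had no value. Over all oocytes the median log2 ratio of dispersion, old over young, was 0.53 for the 10 genes and 0.46 for all features.

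Lsm14b had the largest difference. Its CV beyond counting noise was 12.1% in young and 20.9% in old oocytes, a log2 ratio of dispersion of 1.59, and 93.2% of features had a lower ratio. It remained within NSN oocytes, at 10.3% and 20.1%. Old oocyte 31 was the highest at 891 CPM, and old runs stood at 429, 570 and 430 CPM where young runs stood at 465, 479 and 482 CPM. The log2 ratio was 0.84 with deviations taken within runs and 0.41 without old oocytes 25 to 31. Patl2 had a CV of 28.3% in young and 46.4% in old oocytes, but 13.3% and 17.6% in NSN oocytes alone. Eif4enif1 had 10.4% and 15.9%, and 9.04% and 14.4% in NSN oocytes. Ddx6 was the most variable gene at both ages, at 49.6% and 53.8%, which came down to 23.7% and 26.7% in NSN oocytes. Zar1 (7.64% and 9.30%), Zar1l (7.80% and 10.0%) and Eif4e1b (8.71% and 9.23%) were the steadiest.

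**Figure D5:**
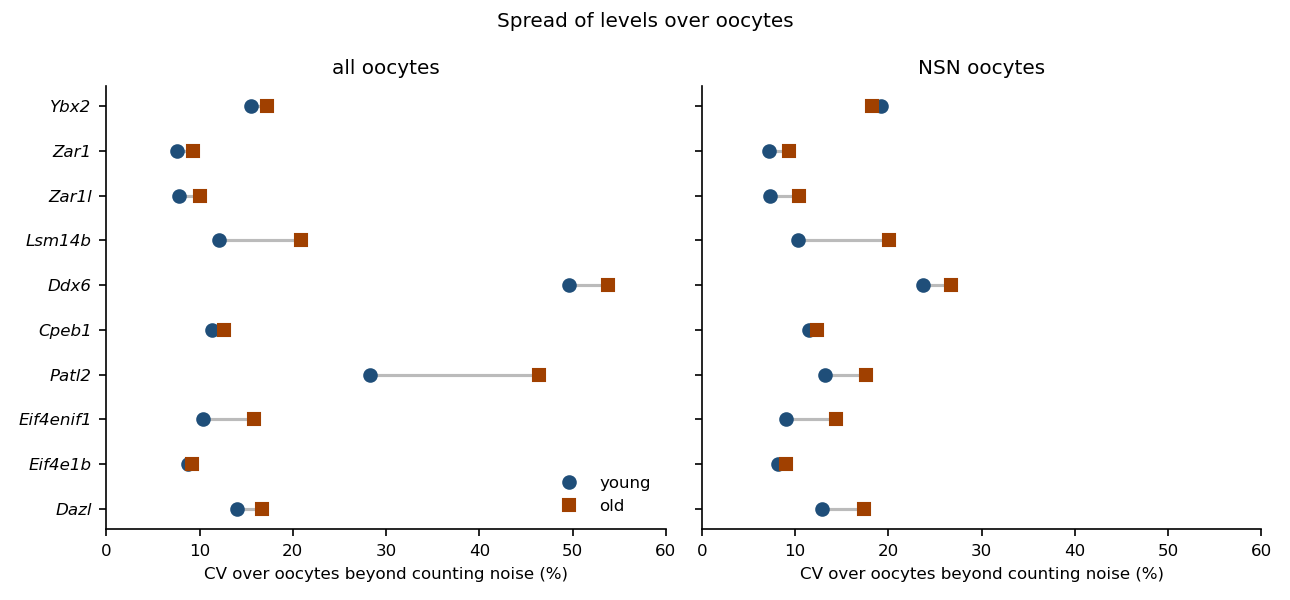
CV over oocytes beyond counting noise (percent, linear axis from 0) for the 10 genes in young (circles) and old oocytes (squares), for all 87 oocytes and for the 67 NSN oocytes. The old point lies to the right for all 10 genes in the full set, and the wide values of Ddx6 and Patl2 shrink when SN oocytes are left out.

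Other genes of the pathway were taken from 6 lists, of which 72 genes reached 10 CPM. With age 0 of these 72 were higher and 1 was lower, Sympk, a scaffold of the 3′ end processing complex, at 38.3 CPM young and 31.5 CPM old (log2 ratio -0.28), against 1.39% and 3.86% of features. Their median log2 ratio was 0.02. Of 16 polyadenylation and 3′ end factors the highest ratios were those of Cpsf2 (0.18) and the cytoplasmic poly(A) polymerase Tent2 (0.10), and the lowest those of Sympk and Cpsf1 (-0.22). Among the 5 poly(A) binding proteins the ratios of Pabpn1 and Pabpn1l were 0.11 and 0.07, and those of Pabpc4 and Pabpc1l -0.12 and -0.09. Among 11 cap binding and initiation factors they reached 0.05 for Eif4e and 0.03 for Eif4e2, and -0.23 for Eif4g1, the scaffold of initiation, and -0.15 for the eIF4E inhibitor Eif4ebp2.

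Partners of DDX6, LSM14 and PATL proteins numbered 14 at 10 CPM or more, and 0 were counted in either direction with age. Lsm3 (0.24) and the decapping activator Edc3 (0.18) had the highest ratios, and the decapping enzyme Dcp2 (-0.20) and Lsm2 (-0.14) the lowest. In the list of 17 other RNA binding proteins, which also had 0 counted, Ybx1 stood at 0.17 and Igf2bp3 at 0.14, and Fxr2 at -0.15 and Atxn2l at -0.11. Of the 11 mRNAs known to be stored and translated at maturation, Slbp had 0.24 and Btg4 0.13, and Dcp2 and Itpr1 (-0.09) were lowest. The feature named Btg4 and that named Mos matched the spans of those genes poorly, with overlaps of 6.2% and 10.1% of the union of the spans.

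Configuration gave more counted genes in the same lists, as it did over all features. In young oocytes 7 of the 72 were higher and 6 lower in SN, against 12.5% and 5.82% of features. In old oocytes 18 were higher and 17 lower, against 22.9% and 18%, and the medians were -0.04 in young and -0.05 in old. Among the partners, Lsm1 (0.60 young and 0.80 old) and Dcp2 (0.31 and 0.58) were counted as higher in SN at both ages, while Lsm14a, the relative of Lsm14b, had -0.21 in young and was counted as lower at -0.28 in old oocytes. Patl1, the somatic relative of Patl2, had -0.19 and -0.23 and was not counted. The cytoplasmic poly(A) binding protein Pabpc1, at about 10 CPM, had 0.43 and 1.36.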

How the data were processed

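The authors trimmed the reads with Trim Galore, aligned them to GRCm38 with HiSat2 and deposited raw counts of reads per feature of an assembled oocyte transcriptome, not normalised. The counting program and its strand setting are not given in the sources used here, and reads carry no molecular identifiers. The methylation data were not analysed here.

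Age came from the labels and configuration from the study's supplementary table, whose totals equalled the counts in 87 of 88 oocytes. Features were named from the 1998 rows of its gene table held here, otherwise from GENCODE M21 (overlap of spans of at least 0.3 of their union). Levels are counts summed over a group per 1000000 total counts (CPM), with exact Poisson intervals, and ratios have exact binomial intervals (95%). A member counted as different at 1.2-fold or more with the median on the same side, among features that reached 10 CPM in either group and 3 counts in both. Dispersion used median of ratios scaling and features with a mean of at least 10. The named genes are the 10 members, the feature most correlated with each, and the 2 highest and 2 lowest age ratios of each list, besides the Pabpc1, Lsm1, Lsm14a and Patl1 values and those of genes counted in a list, which were chosen after their values were seen. Members and lists were chosen with earlier results of these data known. A log2 ratio was taken as moved when it changed by more than 0.1 and left its counting interval, a log2 ratio of dispersion by more than 0.2, and a number by more than 1.5 times. The code was tested on simulated data. Python 3.11.15, numpy 2.4.6, scipy 1.17.1 and, for TMM factors, edgeR 4.0.16 were used. No protein sequence was used here.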

Additional observations from a re-analysis of the deposited data

Results flagged for a closer look

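Patl2 in old SN oocyte 46, at 159 CPM, stood apart from the other 7 old SN oocytes, of which the next was at 100.1 CPM and the lowest at 47.6 CPM. The gap divided by the range was 0.529, just over the critical value of 0.526 for 8 samples, and chance puts about 1 in 20 such groups over it. The other 9 genes were below it, Eif4enif1 at 0.521 among them.

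Old oocyte 48A, which the study leaves without a configuration and which entered only the alternative with all 88 oocytes, held 3 genes above every young oocyte. Zar1 was at 1758 CPM there, against a highest young value of 1282 and a highest old value of 1357 CPM. Patl2 was at 139.9 CPM, against 114 CPM in the highest young oocyte, and Dazl at 1287 CPM, against 1182 CPM. In the same oocyte Lsm14b (239 CPM), Cpeb1 (793 CPM) and Eif4enif1 (362 CPM) were below every one of the 87 oocytes, while Ybx2, Zar1l, Ddx6 and Eif4e1b were within their range.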

How the results depend on the processing

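Of 630 alternative log2 ratios of single genes, 564 stayed within 0.1 or the counting interval, 65 moved and 1 changed sign after being counted: Lsm14b, SN over NSN in old oocytes, at 0.0588 among oocytes with the suffix A, where 3 SN oocytes remain. Dazl, old over young, stayed between 0.27 and 0.34 and past the threshold in 15 of 15 alternatives, and Ddx6 and Patl2, SN over NSN in old oocytes, stayed past it in 11 of 11. Lsm14b, SN over NSN in old oocytes, stayed past it in 6 of 11, and Ddx6, SN over NSN in young oocytes, in 9 of 10, with 0.25 without young oocytes 33 to 39. Within NSN oocytes the age ratios of Dazl and Ddx6 each stayed past it in 11 of 13. Within SN oocytes those of Dazl and Ddx6 each stayed past it in 11 of 14, and that of Patl2 in 13 of 14. The number of genes counted with age, 1, was 2 (Ddx6 and Dazl) with medians over oocytes and among oocytes with no suffix. In NSN oocytes it was 2, and it was 1 after thinning to 900000 counts and with the suffix A (Dazl), and 1 without old oocytes 25 to 31 and without young oocytes 33 to 39 (Ddx6). In SN oocytes it was 3, and 1 without young oocytes 17 to 24 (Patl2). Leaving out each oocyte in turn, added after the data were seen, gave 1 to 2 genes in NSN and 1 to 3 in SN oocytes. It ended the count of Dazl in NSN oocytes for 8 of 67 oocytes (old 9, 16A, 25, 26 and 30, young 4A, 5A and 39A; lowest ratio 0.25), of Ddx6 and Dazl in SN oocytes for young oocyte 24A, and of Lsm14b in old oocytes for 41 and 47.

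The median log2 ratio of the 10 genes with age in SN oocytes, -0.02, was 0.10 with medians over oocytes, 0.19 with the suffix A and 0.10 without old oocytes 41 to 48. With the suffix A alone, the SN over NSN median in old oocytes was 0.0822 rather than -0.03, and the median difference of age ratios between configurations 0.19 rather than -0.01. The median log2 ratio of dispersion, 0.53, was 0.79 in NSN oocytes and 0.88 without young oocytes 1 to 7. The median level in young oocytes was 204 CPM per kb of merged exons and 233 per kb of the longest transcript. The share of features counted with age, 5.26%, was 2.52% at a minimum of 50 CPM, 15.3% at 1 CPM, 14.8% with no minimum and 0.394% at 1.5-fold, and the other comparisons moved in the same directions.

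No paired analysis was possible because the labels give no replicate number or mouse that links oocytes of the groups. With 1 sample an age, the spread between mice is not known, and the threshold of 1.2-fold is no test. Ybx2 and Ddx6, at 43.6 and 86.6 counts an oocyte on average, are the genes for which depth limits single values most.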
